A study of Drosophila melanogaster with 6 samples.

Results

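The genes described here are the long noncoding RNA genes detected in *Drosophila* wing discs: those whose symbol starts with lncRNA: or asRNA:, or with CR and a number, and whose mean was at least 2 CPM (counts of a gene per 1000000 counts of its library) in the control or the knockdown libraries. Of 17559 genes in the count table, 2472 had such a symbol, 1687 of them had any count, and 142 reached the minimum. Of the 142 members, 86 carry the prefix lncRNA: (a long RNA without a known protein product), 24 carry asRNA: (a transcript on the strand opposite to another gene), and 32 carry CR alone. The annotation lists all 32 of the last kind as pseudogenes and the other 110 as noncoding RNA, so that the symbol rule also takes in disabled copies of protein-coding genes. The prefixes are left out of the symbols below.

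The libraries come from whole wing imaginal discs, the larval sacs of epithelium that form the adult wing and dorsal thorax, of wandering larvae at the end of larval life. All animals carried UAS-*P35*/+, the driver *ap*-Gal4 with UAS-GFP/+, and *tub*-Gal80TS. They differed in the RNAi line, which was UAS-*white* RNAi JF01540 in the control group and UAS-*Nup98* RNAi HM05048 in the knockdown group, directed at *Nup98-96*, the gene that encodes 2 proteins of the nuclear pore, Nup98 and Nup96. Larvae were kept at 18°C for 4 days, with Gal80TS holding the driver off, and then at 28°C for 72 h, and both groups expressed P35, a baculovirus protein that blocks effector caspases. There were 3 libraries per group, each made from polyadenylated RNA of 40 pooled discs. *ap*-Gal4 is active in the dorsal compartment, so that every library also holds RNA of ventral cells without the driver, and in such bulk samples fewer cells of a type and less RNA per cell cannot be told apart. The labels do not give the sex of the larvae.

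Long noncoding RNAs act in several ways. Some are scaffolds that hold proteins at a place in the nucleus, as *roX1* and *roX2* do on the male X chromosome and *Hsromega* does in the speckles that store RNA-binding proteins. Others are precursors of microRNAs or small nucleolar RNAs, and others are made beside or across a protein-coding gene, where making the RNA, and not the RNA itself, can be what acts on the neighbor. Most of the members below have a number for a name and no known role, and for those only their position and levels are given. Antisense members need special care here, because the reads were counted without regard to strand, and reads of a member and of an exon across from it cannot be told apart. How the counting treated reads over bases that genes share is not stated. Such reads could be in the count of either gene, of both or of neither.

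Total counts were 93428696, 97629770 and 110330112 for control replicates 1 to 3 and 70342787, 100205246 and 86766625 for knockdown replicates 1 to 3, so that the minimum of 2 CPM stood for 141 counts in the shallowest library and 221 in the deepest. The targeted gene *Nup98-96* was at 304 to 337 CPM in control and 305 to 319 CPM in knockdown discs and was not called (-0.07 on the log2 scale). Its counts include ventral cells without the driver and could include reads of the RNAi hairpin, and the part of either was not tested. The target of the control RNAi, *w*, was at 494 to 569 CPM in control and 865 to 1081 CPM in knockdown discs. Control replicate 1 stood apart by RNA of the larval fat body: the summed level of 6 fat body markers was 3544 CPM there and 20.8 to 86.4 CPM in the other 5 libraries. Markers of the disc epithelium were present in all 6 libraries, at a summed level of 1936 to 1966 CPM in the control and 1269 to 1306 CPM in the knockdown group, and 5 of 6 were called lower in knockdown discs. Of 5 markers of the myoblasts that lie under the disc, 3 were called lower. Both tested trachea markers, *trh* and *vvl*, were called lower (-0.85 and -0.75 on the log2 scale; summed level 538 to 561 CPM in the control and 326 to 336 CPM in the knockdown group). In 4 further lists 1 marker each was called: *moody* of 2 tested glia markers (1.47) and *elav* of 2 tested neuron markers (0.61) were higher, and *eater* of 4 tested hemocyte markers (-1.24) and *Fbp1* of 6 fat body markers (-4.44) were lower. *Fbp1* was at 331, 7.44 and 34.2 CPM in control and 2.79, 7.44 and 6.68 CPM in knockdown discs. Its groups thus overlapped, control replicate 1 was by far the highest, and voom called 0 of the 6 fat body markers. The part of these cell types in the results below was not tested. Of 6 testis markers, 1 was at 0 in every library and the sum over all of them was 6.99 to 10.9 CPM.

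The rule used the group means, so that a member at 2 CPM or more in 1 group only was chosen in part by its difference. For this reason only the 97 members at 2 CPM or more in both groups are described with a test, and the other 45, of which 30 reached 2 CPM in knockdown discs only and 15 in control discs only, are given by their values. All 142 members were among the 7942 genes tested. The members nearest to the minimum on its inner side were *CR42254* (2.01 CPM in control and 1.78 in knockdown discs), *CR44764* (1.13 and 2.01) and *CR45188* (2.02 and 0.792), and the nearest left out were *CR45270* (1.997 and 1.505), *CR43483* (1.96 and 1.92) and *CR43785* (1.94 and 1.36).

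Most members lay close to another gene. Small RNA genes and transposons aside, 69 members had no exon overlapped by another gene, and 73 had an overlap. In 42 of these an exon of the member shared bases with an exon on the opposite strand, over a median of 27.5% of its exon bases and between 0.284% and 71.1%. Another 17 lay within an intron of a gene on the opposite strand, 12 shared exon bases with a gene on the same strand, and 2 lay within an intron of a gene on the same strand. The exons of 10 members overlapped an annotated transposon. The median distance to the nearest protein-coding gene over all 142 members was 81 bases.

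By chromosome, 36 members were on 3L, 30 on X, 27 on 2R, 23 on 3R, 17 on 2L and 9 on the small chromosome 4. The last were 6.34% of the members, and chromosome 4 held 1.17% of all genes with such symbols and 0.905% of protein-coding genes at 2 CPM or more in both groups. The members' exons summed to a median of 1281 bases, from 201 to 21710, against a median of 641 bases among genes with such symbols below the minimum. A minimum in CPM is reached more easily by a long gene, and the part of length in which genes were detected was not tested.

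Levels of different genes are compared here per kilobase (kb) of exon. The median over the 142 members was 3.92 CPM per kb, with a range of 0.179 to 611, whereas 6965 protein-coding genes at 2 CPM or more in both groups had a median of 21.1 CPM per kb. Only 15 members were above that median. Together the members took up 4488, 4659 and 4893 CPM of the control libraries and 6073, 6532 and 6218 CPM of the knockdown libraries, and the larger part of each sum was 1 gene, *CR42862*. Without it the sums were 1678, 1708 and 1963 CPM in control and 2346, 2611 and 2443 CPM in knockdown discs. A few genes described below, *CR10102*, *roX1* and *Hsromega*, had large differences between group means, and sums without them were not computed. The sums also include 30 members that reached the minimum in knockdown discs only and 15 in control discs only. Over the 97 members that reached it in both groups, the median log2 fold change was 0.06.

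*CR42862*, on chromosome 3L (224106 to 230964 in the BDGP6 annotation, as all positions here), had the highest level per kb, with 528 CPM per kb in control and 694 in knockdown discs. Its CPM was 2811, 2952 and 2930 in control and 3728, 3921 and 3775 in knockdown discs. The groups did not overlap, but the log2 fold change of 0.37 ± 0.04 (SE; adjusted p = 0.00026 by the quasi-likelihood test of edgeR with Benjamini-Hochberg adjustment) was under the 0.5 that a call requires, and the gene was not called. It shares 4.48% of its exon bases with *CG33229* on the same strand, which was at 140 and 138 CPM. Next in level per kb were *CR10102*, *CR42491*, *CR43482*, *roX1* and *CR43144*. *CR42491*, on X, holds a small nucleolar RNA gene and shares 50.5% of its exon bases with *RpL22*, which encodes a ribosomal protein, on the same strand. It had 125, 133 and 119 CPM in control and 100, 87.7 and 97.2 CPM in knockdown discs (log2 fold change -0.43, not called), while *RpL22* had a log2 fold change of 0.25, also not called.

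**Figure D1:**
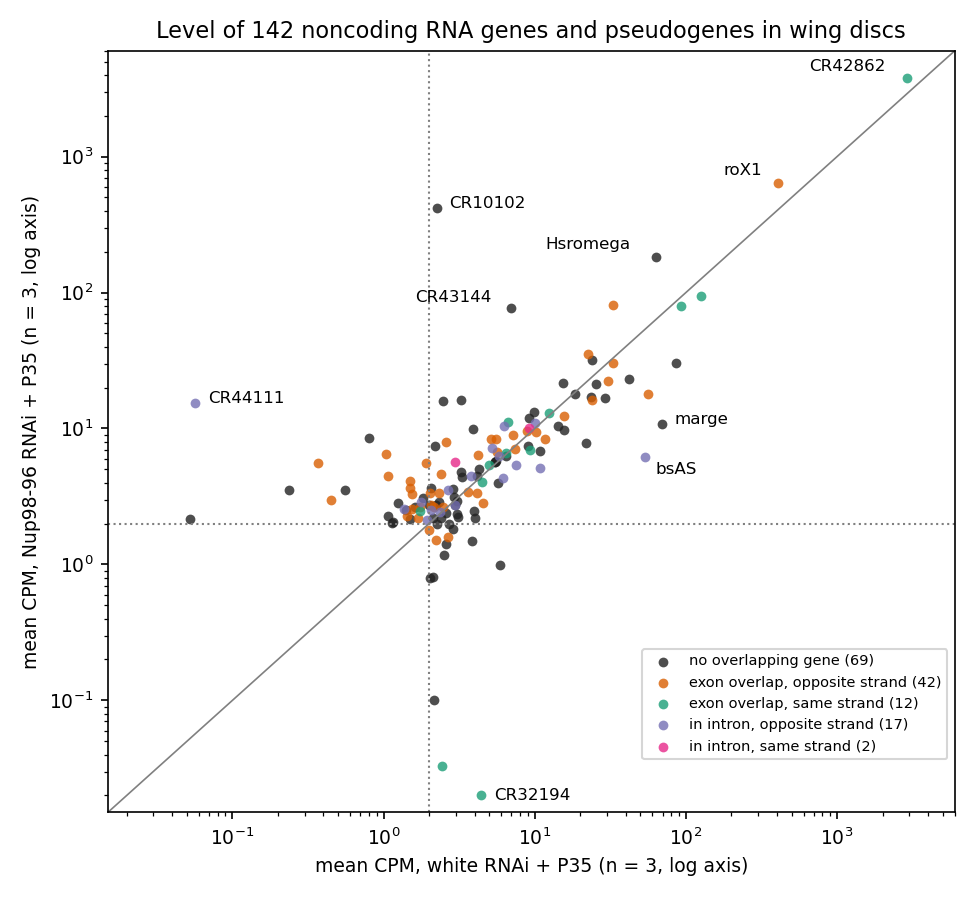
Mean CPM of each of the 142 members in the 3 white RNAi libraries (horizontal, log axis) and the 3 Nup98-96 RNAi libraries (vertical, log axis), colored by overlap with other genes; the solid line marks equal levels and the dotted lines the minimum of 2 CPM. Most points lie near the line, CR10102, CR43144 and CR44111 lie far above it, bsAS and marge lie below it, and CR32194, with a mean of 0 in knockdown discs, is drawn near the lower edge.

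A gene was called higher or lower in knockdown discs when its adjusted p was under 0.05 and its absolute log2 fold change at least 0.5. Of the 97 members present in both groups, 20 were called higher, 18 were called lower and 59 were not called. Without control replicate 1, the library with fat body RNA, 20 were called higher and 19 lower. Among all 7263 tested genes at 2 CPM or more in both groups, 22.5% were called (12.8% higher and 9.61% lower), and among the 6965 protein-coding genes of that kind 22.2% were called (12.7% higher and 9.53% lower), against 39.2% of the members. These shares were not matched for level. The median was 5.57 CPM per kb for the 97 members and 21.1 for these protein-coding genes, and the part of level in the difference was not tested. The median log2 fold change of the 97 members was 0.06, close to the 0.00 of all genes tested. Groups did not overlap for 60 of the 97 members (31 higher and 29 lower), where groups did not overlap for 71.1% of the 7263 genes (37.2% higher and 33.9% lower). In edgeR's glmTreat, which tests against a log2 fold change of 0.5 instead of 0, 14 members were called higher and 8 lower.

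Every kind of member held called genes, in unlike shares. Of 72 members annotated as noncoding RNA, 16 were higher and 14 lower, and of 25 pseudogenes 4 were higher and 4 lower. Of 46 members whose exons no other gene overlapped, 9 were higher and 11 lower. Small RNA genes and annotated transposons were not counted as overlaps, and a transposon covers part of *CR32865*, 1 of the 9. Of 27 members with exon overlap on the opposite strand, 8 were higher and 3 lower, and of 13 within an intron on the opposite strand 1 was higher and 4 were lower. Of 9 with exon overlap on the same strand, 1 was higher and 0 were lower. Of 2 within an intron on the same strand, 1 was higher and 0 were lower. The difference between the kinds was not tested.

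Among the 20 higher members the largest log2 fold change was that of *CR10102*, a pseudogene on chromosome 2R (14360433 to 14361780, minus strand). It had 2.48, 2.29 and 1.99 CPM in the control libraries and 389, 415 and 451 CPM in the knockdown libraries. Every knockdown library was far above every control library, and the gene rose 183-fold (log2 fold change 7.51 ± 0.10 SE, edgeR adjusted p = 4.83e-08). It ends 136 bases before *Arc1*, which lies on the same strand and encodes a Gag-like protein that forms capsids and carries RNA between cells. *Arc1* rose from 16.7, 15.8 and 14.9 CPM to 2599, 2792 and 2966 CPM, a log2 fold change of 7.44. The CPM of *CR10102* was between 13.3% and 15.2% of that of *Arc1* in all 6 libraries. Whether reads of one transcript were counted in both genes was not tested.

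*CR43144*, on chromosome 2L (21657625 to 21658249, plus strand), was the next. It had 7.01, 6.62 and 7.19 CPM in control and 75.4, 82.7 and 72.2 CPM in knockdown discs, and it rose 10.9-fold (log2 fold change 3.44 ± 0.07 SE, edgeR adjusted p = 2.84e-07). The 3 values of each group lay close together and far from those of the other group. *Cul2*, which encodes a scaffold of ubiquitin ligases, starts 486 bases after it on the same strand, and it was called higher too, from 148 ± 1.06 to 518 ± 18.9 CPM (SD, n = 3 each; log2 fold change 1.78). The member thus changed by a larger factor than the gene beside it.

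3 more higher members without an overlap were of low level in control discs. *CR45517*, on X (5428483 to 5429256), had 2.40, 2.94 and 2.05 CPM in control and 18.5, 14.0 and 15.1 CPM in knockdown discs (log2 fold change 2.67, adjusted p = 1.62e-05, edgeR), and its neighbor *CG16756* was under 1 CPM in all 6 libraries. *CR44135*, on 3R (11977640 to 11978178), had 2.30, 2.02 and 2.26 CPM in control and 7.42, 7.95 and 6.87 CPM in knockdown discs (log2 fold change 1.73, adjusted p = 2.63e-05, edgeR). It begins 396 bases after *CG18547* on the same strand, which was called higher with a log2 fold change of 1.16. *CR44677*, on 3L, rose from 3.90 ± 0.326 to 9.97 ± 0.597 CPM (SD, n = 3 each; log2 fold change 1.33, adjusted p = 2.07e-05, edgeR), and its neighbor *CG9300* was not called (0.46). The groups of all 3 members were apart.

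2 higher members are known from the heat shock response. *Hsromega*, on 3R (21296127 to 21317836), is a nuclear RNA induced by heat and other stress that gathers RNA-binding proteins in omega speckles, and it holds the microRNA gene *mir-4951*. It had 52.4, 82.2 and 55.6 CPM in control and 202, 208 and 135 CPM in knockdown discs, so that the lowest knockdown library was above the highest control library, and it rose 2.82-fold (log2 fold change 1.49 ± 0.23 SE, edgeR adjusted p = 0.00109). Its neighbor *aus*, 464 bases away on the other strand, was called lower (-0.71). Of 9 tested genes for proteins of the omega speckles, 1 was called, *nonA*, which fell from 338 ± 15.8 to 242 ± 5.07 CPM (SD, n = 3 each; log2 fold change -0.51), where 26.6% of all 7942 tested genes were called. Before adjustment and with no minimum fold change, 8 of the 9 had a lower level at p under 0.05 in edgeR and 0 a higher one, and DESeq2 and voom each called 1 of the 9 lower. The share of all tested genes at that unadjusted cutoff was not computed, so that this count does not set the list apart.

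The *alphagamma-element* gene, *CR32865* on 3R (12475336 to 12478267), is made of repeated units beside the *Hsp70* copies of a heat shock locus. It had 4.19, 0.881 and 4.70 CPM in control and 19.0, 17.0 and 12.6 CPM in knockdown discs (log2 fold change 2.29 ± 0.55 SE, edgeR adjusted p = 0.00863). Control replicate 2 was far below the other control libraries, and without it the call remained. An annotated transposon covers 45.8% of its exon bases, and how reads of near-identical copies were divided is not known, so that its level is uncertain. *Hsp70Ba*, which encodes a heat-inducible chaperone and lies 7560 bases away, was called higher, from 33.0 to 69.1 CPM (log2 fold change 1.04).

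**Figure D2:**
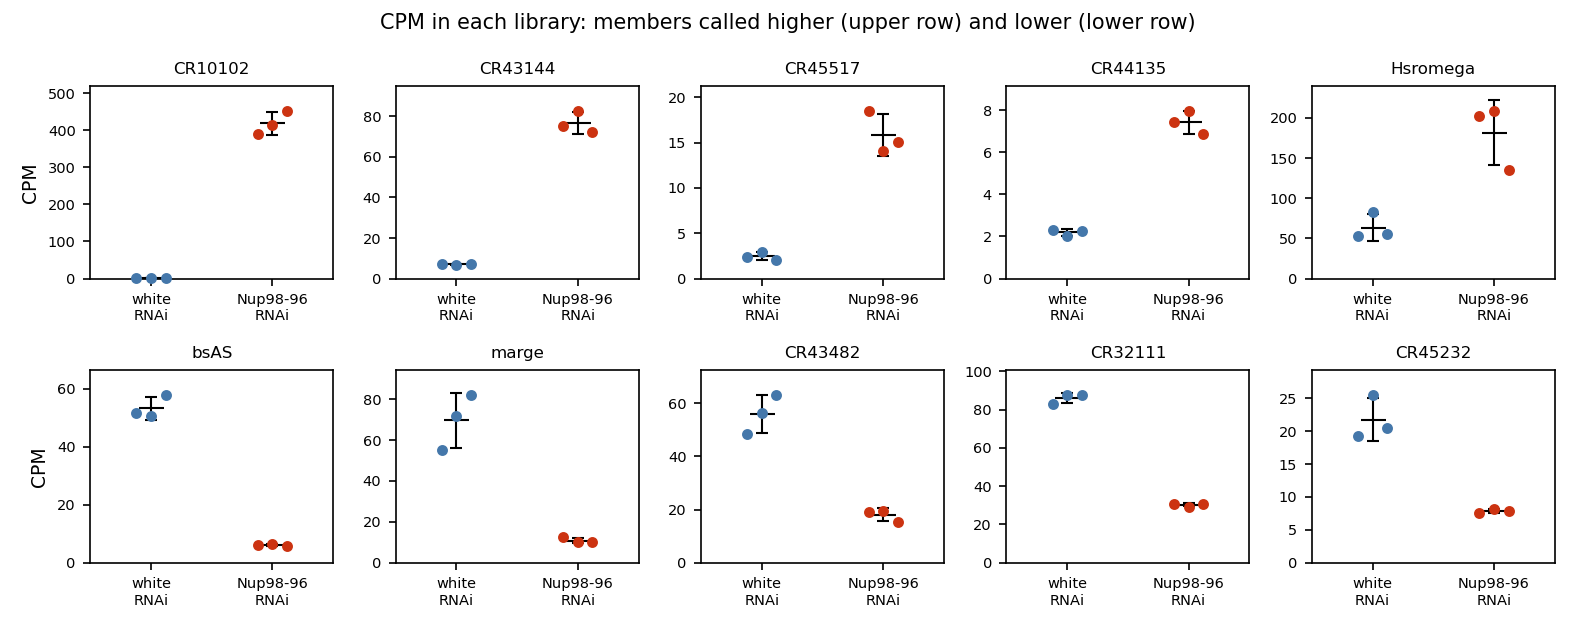
CPM in each library (points), with the mean and SD of each group of 3 (bars), for 5 members called higher in Nup98-96 RNAi discs (upper row) and 5 called lower (lower row); each panel has its own linear axis from 0. The 3 knockdown points are on one side of the 3 control points in every panel, and the widest spread within a group is that of Hsromega in knockdown discs, from 135 to 208 CPM.

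Of the higher members that overlap another gene, those with the largest log2 fold change were *CR45973* and *CR44029*. *CR44029*, an antisense gene on chromosome 4 (879374 to 884752, plus strand), had 30.4, 34.6 and 34.5 CPM in control and 78.4, 87.9 and 76.7 CPM in knockdown discs (log2 fold change 1.26, adjusted p = 2.48e-05, edgeR). It shares 13.1% of its exon bases with *unc-13*, which encodes a priming factor of synaptic vesicles, on the other strand. *unc-13* was itself called higher, from 400 ± 9.59 to 1329 ± 89.3 CPM (SD, n = 3 each; log2 fold change 1.71). Reads over the shared bases may be part of the count of *CR44029* or may have been left out of it, and which of these holds was not tested.

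*CR45973*, on 3L, had 2.52, 2.47 and 2.75 CPM in control and 7.83, 8.20 and 7.63 CPM in knockdown discs (log2 fold change 1.59, adjusted p = 2.48e-05, edgeR). The gene across from it, *CG13248*, was at 0.313 and 1.04 CPM, below the member in every library, and shares 13.9% of the member's exon bases. The pseudogene *CR14798* (log2 fold change 0.92) lies across from *a6*, which was not called (0.05). *noe* (0.90), in an intron of *blot* on the same strand, rose from 2.97 ± 0.329 to 5.65 ± 0.972 CPM (SD, n = 3 each). *blot*, a transporter gene, was not called (-0.19). The pseudogene *CR43212*, without an overlap, rose from 2.05 ± 0.270 to 3.64 ± 0.0615 CPM (SD, n = 3 each; log2 fold change 0.80).

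Among the 18 lower members *bsAS* had the lowest log2 fold change. It lies in an intron of *bs* on the other strand (chromosome 2R, 24351477 to 24369689, minus strand). *bs* encodes the fly serum response factor, which is needed for the intervein cells of the wing. *bsAS* had 51.7, 50.5 and 57.7 CPM in control and 6.27, 6.42 and 5.76 CPM in knockdown discs. It fell 8.82-fold (log2 fold change -3.14 ± 0.08 SE, edgeR adjusted p = 6.44e-07), with no overlap between groups. *bs* fell 3.69-fold (log2 fold change -1.89), from 114, 127 and 125 CPM to 34.0, 33.3 and 33.4 CPM. None of the exon bases of *bsAS* is shared with an exon of *bs*, but unspliced RNA of *bs* would be counted in it.

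*marge*, on 3L (14976626 to 14977631), fell 6.55-fold (log2 fold change -2.71 ± 0.18 SE, edgeR adjusted p = 2.44e-05). It had 55.1, 71.9 and 81.8 CPM in control and 12.4, 9.94 and 10.2 CPM in knockdown discs. The lowest control library was above the highest knockdown library by more than the spread of either group. Its neighbor *Ocho*, a gene of the Bearded family of Notch pathway targets 586 bases away on the other strand, was at 18.9 ± 0.832 and 21.1 ± 1.68 CPM (SD, n = 3 each) and was not called (0.14).

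*CR32111*, on 3L (12627934 to 12648280), starts 6136 bases after *caup*, 1 of the Iroquois homeobox genes that pattern the notum and place its bristles. It had 83.1, 87.4 and 87.4 CPM in control and 30.6, 29.4 and 30.9 CPM in knockdown discs, and it fell 2.89-fold (log2 fold change -1.53 ± 0.05 SE, edgeR adjusted p = 1.41e-06). *caup* fell as well, from 191 ± 5.34 to 84.8 ± 1.40 CPM (SD, n = 3 each; log2 fold change -1.19). The same stretch holds *CR43431*, which reached 2 CPM in control discs only and is described below.

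2 further members fell by a similar factor beside genes that did not pass the call. *CR45232*, on 2R (16297449 to 16306695), had 19.3, 25.5 and 20.6 CPM in control and 7.49, 8.18 and 7.94 CPM in knockdown discs (log2 fold change -1.49, adjusted p = 4.64e-05, edgeR), and *Atg9*, an autophagy gene, had a log2 fold change of 0.14. The pseudogene *CR43482*, on 3L (9386112 to 9386463), had 48.5, 56.2 and 62.9 CPM in control and 19.1, 19.6 and 15.2 CPM in knockdown discs (log2 fold change -1.66, adjusted p = 7.23e-05, edgeR). It shares 1 base with the pseudogene *CR43483* on the other strand, which was at 1.96 and 1.92 CPM, and its nearest coding gene *CG4080* had a log2 fold change of 0.15.

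Smaller falls were measured for 7 named members. *CR43264*, in an intron of *CG15765* on the other strand, fell from 10.8 ± 2.29 to 5.10 ± 0.752 CPM (log2 fold change -1.11), and *CG15765* was called lower too (-0.84). *CR45102*, which begins 185 bases after *Mnt* on the same strand, fell from 29.3 ± 2.83 to 16.7 ± 0.224 CPM (-0.84), and *Mnt*, a partner of Max that opposes Myc, was called lower by -0.81. The pseudogene *CR44383* fell from 4.01 ± 0.935 to 2.21 ± 0.218 CPM (-0.88), and *sordd2*, 11 bases away on the other strand, was called lower by -0.66 (SD, n = 3 each for these 3 members). For these 3 members the neighbor moved in the same direction.

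*CR33938* fell from 41.9 ± 4.14 to 23.1 ± 1.42 CPM (log2 fold change -0.88) beside *Ccp84Ab*, a cuticle gene under 0.07 CPM in every library. *CR42861* fell from 3.98 ± 0.695 to 2.46 ± 0.177 CPM (-0.72), with *Pdcd4*, 101 bases away on the other strand, not called (0.16). *CR31044* is described with the microRNA hosts, and *CR45310* overlaps a member that went the other way (SD, n = 3 each). *CR45310* and *CR45311*, on 2R (18226795 to 18228595 and 18227495 to 18231228), lie on opposite strands and share 1101 exon bases. *CR45310* had 5.45, 4.67 and 3.50 CPM in control and 2.99, 2.70 and 2.86 CPM in knockdown discs (-0.69, adjusted p = 0.0106, edgeR), while *CR45311* had 1.76, 1.95 and 2.05 CPM in control and 5.37, 5.70 and 5.58 CPM in knockdown discs. Since reads of the shared bases cannot be given to one of them, the fall of *CR45310* and the higher level of *CR45311* are both uncertain in size.

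*roX1* and *roX2* are RNAs of the dosage compensation complex, which raises transcription of the single X chromosome of males, and they are stable only in males. *roX1*, on X (3857230 to 3862697), had 349, 315 and 559 CPM in control and 519, 749 and 634 CPM in knockdown discs. Control replicate 3 was above knockdown replicate 1, and the gene was not called (log2 fold change 0.61 ± 0.25 SE, edgeR adjusted p = 0.066). It was the only member not called with an absolute log2 fold change of 0.5 or more. Without control replicate 3 it was called (log2 fold change 0.93, adjusted p = 0.00187, edgeR), and it was also called with upper-quartile scaling, with library size only, with voom and with the replicate number as a block. These were 5 of 16 settings. With any other library left out *roX1* was not called. Its log2 fold change was then between 0.45 (without control replicate 2) and 0.73 (without knockdown replicate 1). It shares 7.17% of its exon bases with *ec* on the other strand, which was not called (-0.16).

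*roX2*, on X (11579065 to 11580432), had 15.1, 10.9 and 20.4 CPM in control and 15.7, 25.9 and 23.1 CPM in knockdown discs (log2 fold change 0.45 ± 0.27 SE, edgeR adjusted p = 0.179), with groups that overlapped. Without control replicate 3 it was called (log2 fold change 0.74, adjusted p = 0.0306, edgeR), which was 1 of 16 settings. Without control replicate 2 its log2 fold change was 0.25, and it was not called. The order of the 6 libraries from low to high was the same for both *roX* genes. Their levels correlated across the 6 libraries with Pearson's r = 0.954 (exact permutation p = 0.00278, two-sided) and Spearman's rho = 1.00 (exact permutation p = 0.00278, two-sided). Without the 2 libraries farthest from the median of *roX1*, control replicate 2 and knockdown replicate 2, r was 0.856 over the 4 left, too few for the relation to be tested further. These p-values permute all 6 libraries regardless of group. With each level taken as the deviation from its group mean, r was 0.952 (exact permutation within groups, 36 arrangements, p = 0.0278, two-sided, the smallest that these can give). It was 1 relation chosen after the values were seen. The level of *roX1* was between 23.2 and 33.0 times that of *roX2* in CPM.

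The share of male discs in a pool was not measured, so that it cannot be told apart from a difference between groups in either gene. Of 8 genes for the proteins of the complex and their regulators, 1 was called: *msl-2*, the male-specific subunit, at 51.7, 50.7 and 66.5 CPM in control and 73.7, 91.8 and 84.3 CPM in knockdown discs (log2 fold change 0.54, adjusted p = 0.0118, edgeR). Among all 7942 tested genes 26.6% were called, so that this count does not set the list apart. *Sxl*, the female switch gene that blocks *msl-2*, was at 367 ± 9.38 and 291 ± 22.9 CPM (SD, n = 3 each), and its groups did not overlap. Its log2 fold change of -0.36 (adjusted p = 0.00163, edgeR) was smaller in size than the 0.5 that a call requires, and it was not called.

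**Figure D3:**
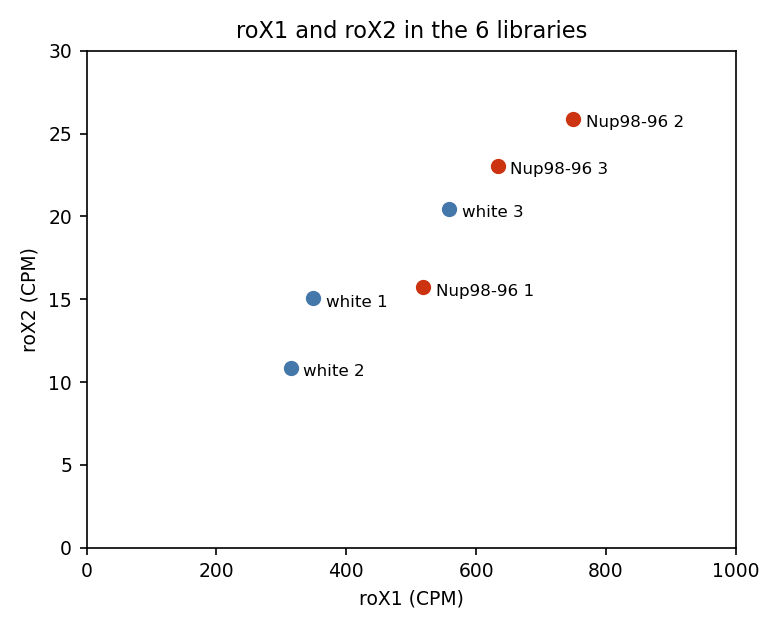
Level of roX2 against roX1 in each of the 6 libraries, both in CPM on linear axes from 0; white RNAi libraries are blue and Nup98-96 RNAi libraries red, with replicate numbers. The libraries fall in the same order on both axes, and white RNAi replicate 3 (559 and 20.4 CPM) lies among the knockdown libraries.

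5 members hold microRNA genes, out of 33 genes with such symbols that do. *mir-279* and *mir-996* lie in *CR31044* on 3R (29214562 to 29219667), which had 16.1, 15.9 and 15.1 CPM in control and 11.5, 9.09 and 8.79 CPM in knockdown discs. It fell 1.63-fold (log2 fold change -0.70, adjusted p = 0.00112, edgeR), with groups apart, and the 2 microRNAs are known for limiting JAK/STAT signaling in the ovary and the number of certain sensory neurons. *CR45916*, the host of *mir-9a*, which limits the number of sensory organ precursors in the wing disc, was at 2.34 ± 0.494 and 2.88 ± 0.285 CPM (SD, n = 3 each) and was not called (0.28). *CR43459*, the host of *mir-277* and *mir-34*, had 0.899, 0.471 and 0.290 CPM in control and 3.24, 3.63 and 3.64 CPM in knockdown discs. *Fmr1*, 64 bases from it on the other strand, was called lower (-0.52), from 438 ± 8.43 to 311 ± 9.07 CPM (SD, n = 3 each). *CR46006*, the host of *mir-276a*, reached 2 CPM in control discs only, with means of 2.51 CPM there and 1.17 CPM in knockdown discs.

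Polyadenylated reads over a host are of the precursor transcript and do not give the level of a mature microRNA. Of 9 tested genes of microRNA processing none was called by edgeR, DESeq2 or voom, with 3 higher and 5 lower at an unadjusted p under 0.05 in edgeR. Of 12 tested genes of the nuclear exosome and its cofactors, which degrade many noncoding RNAs, none was called by edgeR, DESeq2 or voom, with 8 higher and none lower at an unadjusted p under 0.05 in edgeR. For both lists the share of all tested genes at that unadjusted cutoff was not computed, so that these counts do not set them apart.

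Among the 30 members at 2 CPM or more in knockdown discs only, the highest mean was that of *CR44111*. It lies on X (8919640 to 8920467, minus strand) in an intron of *rdgA*, a diacylglycerol kinase gene, on the other strand. Control libraries had 10, 0 and 7 counts of it, or 0.107, 0 and 0.0634 CPM, and knockdown libraries had 15.6, 15.8 and 15.1 CPM. The ratio of the means was 273. *rdgA* was called higher, from 41.5 ± 4.24 to 72.7 ± 3.23 CPM (SD, n = 3 each; log2 fold change 0.79). No exon of *rdgA* overlaps the member's exons.

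The other 4 with the highest means in knockdown discs were the pseudogene *CR43086*, *CR43989*, *CR45311* (above) and *CR44458*. *CR43086*, on 3L and without an overlap, had 0.781, 0.819 and 0.816 CPM in control and 9.88, 7.43 and 8.14 CPM in knockdown discs. *CR43989*, on 3L, had 0.974, 1.10 and 1.03 CPM in control and 7.02, 6.41 and 5.97 CPM in knockdown discs, and shares 14.3% of its exon bases with *IRSp53* on the other strand. *IRSp53*, which encodes an adaptor of the actin cytoskeleton, was called higher (log2 fold change 1.31). The count of *CR43989* may hold its reads, or reads over the shared bases may have been left out. *CR44458*, on 2R, had 0.310, 0.410 and 0.390 CPM in control and 4.82, 6.57 and 5.46 CPM in knockdown discs, and the gene that overlaps it, *CR44459*, was at 0 in all 6 libraries. Reads over the bases that they share may have been left out, so that the 0 does not show that *CR44459* was silent. In each of these 4 members the values in knockdown discs were apart from those in control discs, as the rule favors.

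*CR46089*, chosen after its values were seen, is an antisense gene on 3R that shares 16.0% of its exon bases with *p53*, which encodes the stress-responsive transcription factor, on the other strand. Its mean was 0.451 CPM in control discs and 2.97 in knockdown discs, while *p53* was called higher, from 14.0 to 38.3 CPM (log2 fold change 1.43). Reads of *p53* and of the member cannot be told apart over the shared bases. Over all 30 members of this kind, the ratio of mean CPM in knockdown to control discs was between 1.09 and 273, with a median of 2.002, and 17 of them overlap another gene, 16 on the opposite strand.

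The 15 members at 2 CPM or more in control discs only had lower levels. *CR43431*, on 3L (12648907 to 12653090), lies 27109 bases from *caup*, next to *CR32111*, and had 5.09, 6.23 and 6.46 CPM in control and 0.952, 0.669 and 1.35 CPM in knockdown discs. *CR32194*, on 3L (18085305 to 18087058), had 4.58, 3.02 and 5.70 CPM in control discs and no count in any knockdown library, which with a floor of 3 counts per library is at least 124-fold lower. *CR43253*, chosen after its values were seen, shares 6 exon bases with *CR32194* on the same strand with means of 2.45 CPM in control discs and 0.0332 in knockdown discs. *mimi*, on 3R, had 3.38, 4.15 and 3.99 CPM in control and 1.63, 1.52 and 1.28 CPM in knockdown discs.

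The pseudogene *CR32011*, on chromosome 4, had 3.21, 2.65 and 2.74 CPM in control and 1.81, 1.80 and 1.87 CPM in knockdown discs. The pseudogene *CR12842*, on 2R, had 2.65, 2.98 and 2.52 CPM in control and 1.63, 1.97 and 2.35 CPM in knockdown discs. *CR12842* at its highest knockdown value came close to its lowest control value, and the groups of both genes did not overlap. The pseudogene *CR16735*, chosen after its values were seen, had means of 2.15 CPM in control discs and 0.0999 in knockdown discs and begins 31 bases after *St2*, a sulfotransferase gene on the same strand. *St2* was called lower, from 57.8, 81.0 and 98.1 CPM to 1.53, 1.05 and 1.07 CPM (log2 fold change -6.07).

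**Figure D4:**
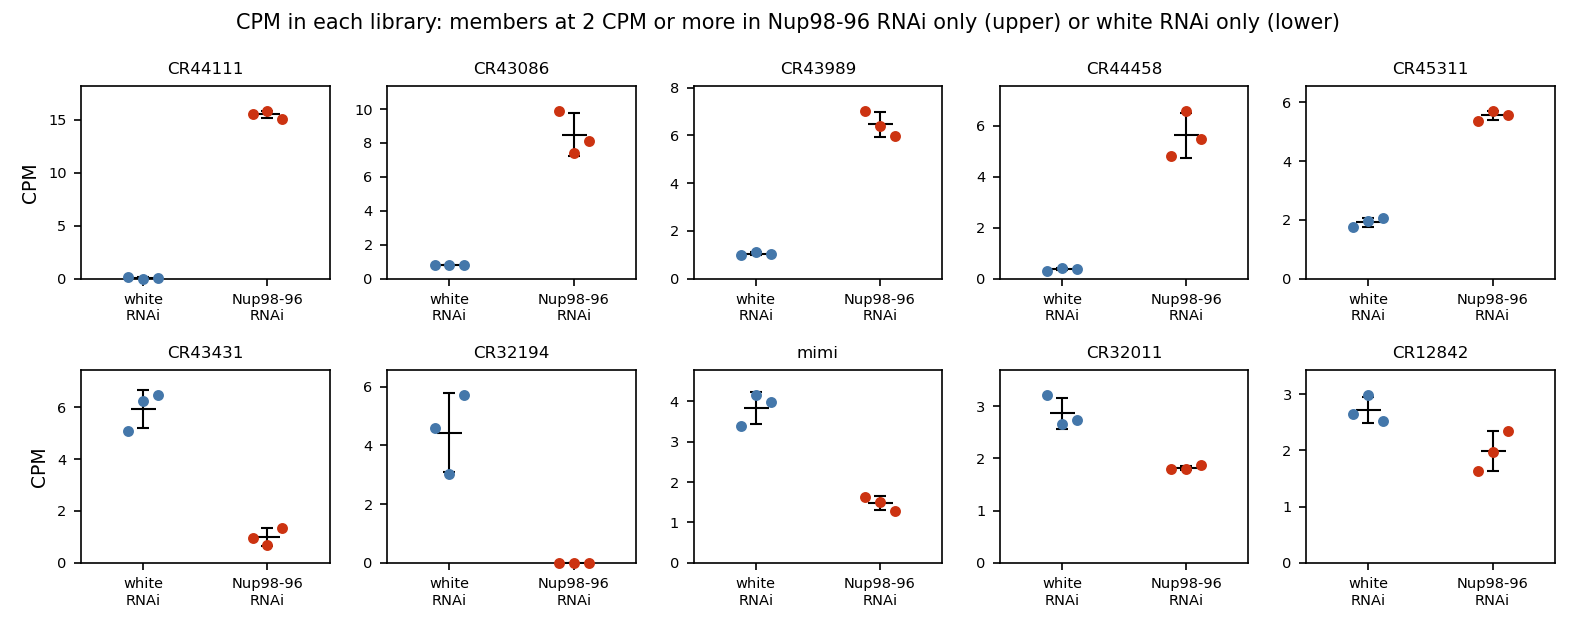
CPM in each library (points), with the mean and SD of each group of 3 (bars), for the 5 members with the highest mean among those at 2 CPM or more in Nup98-96 RNAi discs only (upper row) and in white RNAi discs only (lower row); each panel has its own linear axis from 0. CR44111 goes from at most 0.107 CPM in control to 15.1 or more in knockdown discs, CR32194 is at 0 in all 3 knockdown libraries, and CR12842 is at 2.35 CPM in knockdown replicate 3, close to the control values.

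Since so many members lie beside a coding gene, the log2 fold change of each member was set beside that of its nearest protein-coding gene. This gene was tested for 79 of the 97 members. Across these 79 pairs, which share the same 6 libraries and are not independent replicates, Pearson's r was 0.533 and Spearman's rho 0.395. *CR10102* with *Arc1* carries much of the first value, and without it r was 0.232 and rho 0.373 over 78 pairs. For 36 members whose coding neighbor overlaps them r was 0.691 and rho 0.477, for 29 within 1 kb without overlap, *CR10102* among them, r was 0.836 and rho 0.407, and for 14 farther than 1 kb r was 0.00434 and rho 0.370. Without *CR10102* the values within 1 kb were 0.496 and 0.342 over 28 pairs, and without *bsAS* those of overlapping pairs were 0.528 and 0.431 over 35. The r of the distant pairs rests on 1 of them, *CR12628* (-0.50) with *Ir40a*, an ionotropic receptor gene 11776 bases away with a log2 fold change of 8.96, without which r was 0.788 and rho 0.586 over 13 pairs. These pairs were left out after their values were seen. Reads that run past the end of a coding gene would be counted in a member behind it. In the 8 members within 1 kb behind a coding gene on the same strand, r was 0.920 and rho 0.881. Without *CR44135*, the pair whose removal lowered r most, they were 0.812 and 0.821 over 7. The part of reads that run past a gene end was not tested.

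Of the 38 called members, 32 had a tested neighbor. The neighbor was called in the same direction for 13 and in the opposite direction for 2, and was not called for 17. Both opposite pairs have been named: *Hsromega* with *aus*, and *CR12628* with *Ir40a*. *marge* and *CR45232* were among the 17 whose neighbor was not called, and *bsAS*, *CR32111* and *CR43144* among the 13.

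**Figure D5:**
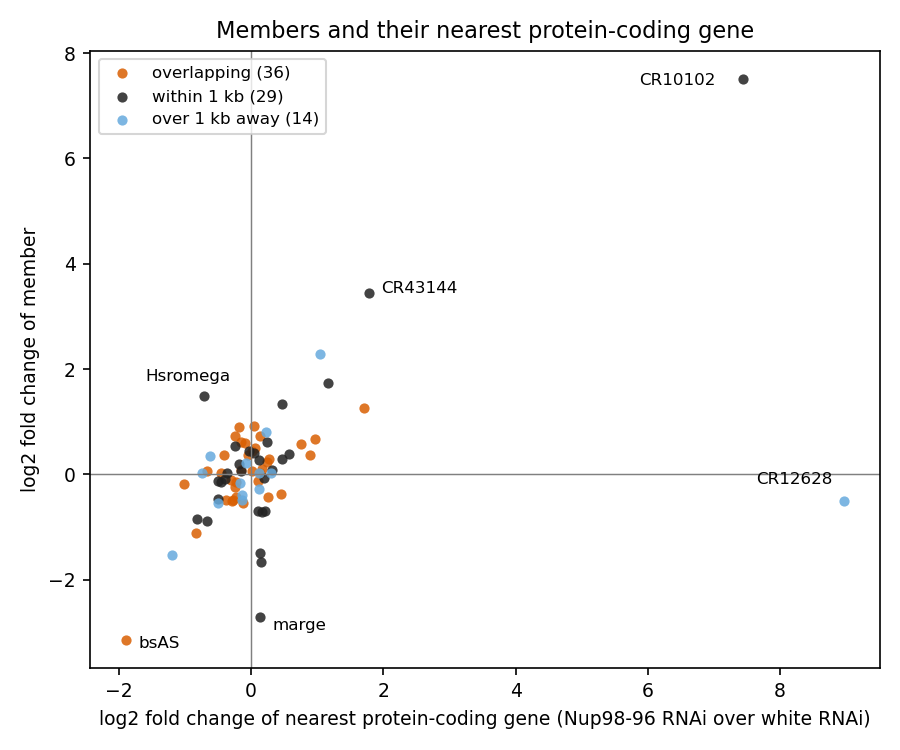
Log2 fold change (Nup98-96 RNAi over white RNAi) of each of 79 members at 2 CPM or more in both groups (vertical) against that of its nearest protein-coding gene (horizontal), colored by distance. CR10102 (7.51 with Arc1 at 7.44) and CR12628 (-0.50 with Ir40a at 8.96) lie apart, and the other points lie between -3.14 and 3.44 on the vertical axis.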

How the data were processed

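RNA of 40 wing discs per library was sequenced by the authors after polyA selection, aligned to BDGP6 with Rsubread and counted per gene with featureCounts. The counting ignored strand, while the labels call the libraries directional. The deposited table holds whole-number counts, not normalized. A second deposited table holds the authors' own comparison (log2 fold changes, average expression, p-values, scores) and was not used here. Symbols and positions came from the Ensembl BDGP6 annotation, which matched 17253 of 17559 identifiers. The other 306 had no symbol and could not be members.

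Counts were tested with edgeR 4.0.16 (glmQLFit, glmQLFTest) in R 4.3.3 over 7942 genes left by a Jaccard similarity filter (200 normalized counts), with TMM scaling (factors 0.963 to 1.02), Benjamini-Hochberg adjustment and no block. The filter threshold was the upper end of the range searched. Levels are CPM from library totals. Fold changes of tested members come from the fit, and those of members in 1 group are ratios of means. The tests were run on simulated data to check that set changes were recovered. The simulation gave every gene the same variability and set no library apart, unlike these libraries, so that it does not show how the tests perform on them. Alternatives used RLE, upper-quartile or no scaling, other filters, DESeq2 1.42.0, voom (limma 3.58.1), glmTreat, a replicate block and each library left out. P-values measure the spread between pools of discs. Replicates of a group were not duplicates of each other: a chi-square test of their counts gave 16.0 to 166 per degree of freedom.

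Members, lists and the naming rule were chosen with earlier results of these data known. Named are members with a proper name, the 8 highest and 8 lowest called members without an overlap and the 4 highest and 4 lowest with one, the 5 highest of each group among members in 1 group, the 6 highest per kb of exon, and the 5 highest hosts of small RNAs. A planned search of member promoters for motifs was not run, since no promoter sequence was used here.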

Additional observations from a re-analysis of the deposited data

How the results depend on the processing

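With 38 members called (20 higher, 18 lower), RLE, upper-quartile and library-size scaling, filterByExpr, no filter, DESeq2 and voom gave 38 to 41, no minimum fold change gave 55 (28 and 27), and glmTreat gave 22, with 14 higher and 8 lower. Leaving out each library gave 35 to 39 calls, with 18 to 22 higher and 16 to 19 lower, and without control replicate 1, the library with fat body RNA, 39. Restricted to members that no other gene overlaps, 20 were called (9 higher, 11 lower), and restricted to members annotated as noncoding RNA, a choice made after seeing the data, 30 (16 and 14). Both restrictions use fewer genes. The replicate numbers did not pair the libraries (correlations of same-numbered libraries -0.181, 0.0167 and -0.0212), and with the replicate number as a block 36 were called (21 higher, 15 lower). Of the 38 members, 22 (14 higher, 8 lower) were called as described here and in 15 other settings (glmTreat among them, no minimum fold change not), and *CR12628* was called in 7 of these 16, *CR32385* in 9 and *CR32027* in 10. For the 29 named members with a test, 400 of 406 values over the 14 settings other than glmTreat and no minimum fold change kept direction and side of the threshold, and the other 6, *roX1* in 5 settings and *roX2* in 1, gained a call. In glmTreat 5 of the 24 called ones lost the call (*CR44383*, *CR42861*, *CR31044*, *CR43212* and *CR45310*), and with no minimum fold change *CR42862* and *CR42491* gained one. A minimum of 1 CPM gave 227 members and of 5 CPM 71, TMM-scaled CPM gave 142, and leaving out a library gave 139 to 143. At 2 CPM a library holds at least 141 counts of a gene, which limits the precision of the weakest members.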
